A study of Mus musculus with 2 samples.

Results

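Glycolysis and the hypoxia response were described through 40 genes: 17 glycolytic enzymes, 4 glucose and lactate transporters, 3 regulators of glycolytic flux, 2 subunits of the hypoxia-inducible factor (HIF), 2 HIF prolyl hydroxylases and 12 further HIF targets. The genes were taken by symbol from a list that was chosen with earlier results of these data known. All 40 were found among the 21983 genes of the count table, and all 40 had at least 20 counts summed over the libraries. Primary chondrocytes from wild-type (WT) mice were cultured in medium with fetal bovine serum and received either recombinant mouse Sparcl1 protein (50 ng/ml) or phosphate-buffered saline (PBS) for 3 days. Sparcl1 belongs to the SPARC family of proteins that cells release into the matrix. The design asks which transcripts differ between chondrocyte cultures with and without the added protein. The oxygen tension of the cultures and the age of the animals are not given in the sources used here.

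There was 1 library per group, with 26871933 gene counts in the Sparcl1 library and 29858851 in the PBS library. No difference reported here therefore has a replicate check, and no p-value is given. Each ratio is the Sparcl1 library over the PBS library in CPM, that is, in counts scaled so that both libraries have the same effective size, and each interval is a 95% interval for counting error alone. Of the cell type markers, the chondrocyte genes Col2a1 (7332 and 8629 CPM) and Comp (2967 and 2909 CPM) were abundant in the Sparcl1 and PBS libraries. So was the collagen gene Col1a1 of the osteoblast list (6309 and 8206 CPM). The rest of that list was far less abundant, from Ibsp (88.2 and 136 CPM) down to Bglap (0.368 and 0.644 CPM). All 10 macrophage markers were also detected, with summed levels of 2445 CPM in the Sparcl1 library and 2128 CPM in the PBS library. Without Lyz2 (1640 and 1327 CPM) the other 9 summed to 804 CPM in the Sparcl1 library and 802 CPM in the PBS library. The 3 adipocyte and 4 erythroid markers were all under 20 counts. In bulk RNA, a change in the number of cells of a type and a change in RNA per cell cannot be told apart.

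Glycolysis splits glucose into pyruvate in the cytosol, and lactate dehydrogenase turns pyruvate into lactate, which leaves the cell through monocarboxylate transporters. Cartilage has no blood vessels, and chondrocytes are known to draw most of their energy from glycolysis under low oxygen. When oxygen is scarce, HIF prolyl hydroxylases lose activity, HIF alpha subunits escape degradation, and the factor binds hypoxia response elements with the core letters ACGTG or GCGTG near its target genes. Its targets include many glycolytic genes and also genes of mitophagy, pH control, growth restraint and vascular tone.

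The hypoxia response element core was searched in RefSeq promoters on GRCm38.p6, each window spanning 250 bases before to 50 bases after an annotated start, on both strands. Windows were found for 36 members (Ero1l under the symbol Ero1a). Those of Slc2a3, Epas1, Bnip3l and Ndrg1 are not analysed here. A core lay in at least 1 window of 32 of the 36 members (88.9%), against 66.4% of 10389 measured genes with a window. By window rather than gene, the shares were 77.4% of 53 member windows and 60.5% of 13289 windows of measured genes. Glycolytic members held it in 20 of 23 genes, and non-glycolytic HIF targets in 11 of 12. The letters ACGTG are also part of the E-box CACGTG. It was present in 6 of the 36 members (16.7%), against 11.5% of measured genes with a window. A match is a run of letters and not a measured binding site.

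The 250 bases upstream of the start are printed below for 6 members. They are 3 glycolytic genes with a core (Slc16a3, Pgk1, Ldha), Tpi1 as a glycolytic gene with none, and the HIF targets Bnip3 and Higd1a. Their log2 ratios ran from 0.19 to 0.42, all above the members' median of 0.15, so members with lower ratios are not shown. Capitals mark ACGTG or GCGTG, or their reverse complements CACGT and CACGC. Slc16a3 lies at chr11:120948817-120949066 (plus strand), Pgk1 at chrX:106186850-106187099 (plus), Ldha at chr7:46845554-46845803 (plus), Tpi1 at chr6:124814159-124814408 (minus), Bnip3 at chr7:138909507-138909756 (minus) and Higd1a at chr9:121857797-121858046 (minus).
Slc16a3: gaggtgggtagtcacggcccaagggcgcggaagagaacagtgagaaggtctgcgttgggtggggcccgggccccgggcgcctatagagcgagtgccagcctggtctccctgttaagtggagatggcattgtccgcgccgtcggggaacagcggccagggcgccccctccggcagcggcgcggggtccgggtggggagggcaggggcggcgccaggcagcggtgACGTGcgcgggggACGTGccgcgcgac
Pgk1: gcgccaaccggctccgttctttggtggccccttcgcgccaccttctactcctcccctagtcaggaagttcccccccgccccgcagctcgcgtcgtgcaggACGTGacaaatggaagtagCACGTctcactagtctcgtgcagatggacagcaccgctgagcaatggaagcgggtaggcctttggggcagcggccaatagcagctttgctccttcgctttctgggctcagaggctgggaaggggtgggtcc
Ldha: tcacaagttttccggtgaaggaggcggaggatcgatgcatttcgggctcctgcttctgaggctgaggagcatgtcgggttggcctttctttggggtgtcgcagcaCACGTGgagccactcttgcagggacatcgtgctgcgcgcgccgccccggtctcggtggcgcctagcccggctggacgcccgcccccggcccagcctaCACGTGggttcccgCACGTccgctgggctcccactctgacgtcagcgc
Tpi1: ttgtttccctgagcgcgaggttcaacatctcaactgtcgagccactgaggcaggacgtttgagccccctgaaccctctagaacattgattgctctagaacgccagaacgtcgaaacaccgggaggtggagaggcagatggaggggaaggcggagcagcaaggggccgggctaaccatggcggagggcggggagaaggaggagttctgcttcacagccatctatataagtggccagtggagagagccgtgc
Bnip3: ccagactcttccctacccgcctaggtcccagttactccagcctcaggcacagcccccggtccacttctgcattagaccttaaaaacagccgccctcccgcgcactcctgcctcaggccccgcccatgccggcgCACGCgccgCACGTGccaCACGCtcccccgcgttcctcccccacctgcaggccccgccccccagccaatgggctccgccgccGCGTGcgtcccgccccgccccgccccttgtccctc
Higd1a: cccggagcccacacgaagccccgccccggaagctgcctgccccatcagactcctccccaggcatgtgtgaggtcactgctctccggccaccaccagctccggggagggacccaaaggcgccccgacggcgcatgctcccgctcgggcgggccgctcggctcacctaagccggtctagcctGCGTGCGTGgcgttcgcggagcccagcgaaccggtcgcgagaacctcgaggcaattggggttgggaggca
The upstream stretch of Bnip3 held 5 cores, as did that of Ldha, counted on both strands. An overlapping pair forms an E-box in Bnip3, as do pairs at each of 2 places in Ldha. Slc16a3, Pgk1 and Higd1a held 2 each, which overlap in Higd1a. Over the 32 members with a core in a window, the median log2 ratio was 0.18 (range -0.19 to 0.42). Over the 4 without a core (Gpi1, Tpi1, Eno2 and Car12) the median was 0.19 (range -0.07 to 0.30).

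As a group, the members were slightly more abundant in the Sparcl1 library. Their median log2 ratio was 0.15, against -0.00 over all 13317 genes with at least 20 counts, and 30 of 40 ratios were above 1, against 49.6% of all genes. No member reached a 2-fold difference, a size reached in the higher direction by 0.954% and in the lower direction by 0.946% of all genes. By a rule of 1.2-fold with an interval that excludes equality, 13 members were higher in the Sparcl1 library, against 8.34% of all genes, and none was lower, against 7.66%. Higher genes made up 52.1% of all genes past that rule, or 63.6% with total counts as library sizes, where 1398 genes were higher and 799 lower and the members' counts were again 13 and 0. The share that passes depends on depth. Of the 33 members whose counts summed to 1000 or more, 12 were higher and none was lower, against 5.75% and 5.17% of all genes at that depth. The interval lay above 0 for 21 members (20.1% of all genes) and below 0 for 5 (21.6%), and it held 0 for 14. All members together took 1.13% of the counts in the Sparcl1 library and 0.938% in the PBS library.

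Gene length and base composition moved with these counts. After smooth trends of the log2 ratio with exon length and GC content were removed, the median of the members was 0.11 and 8 members stayed past the 1.2-fold rule. Tpi1 (0.24), Pgam1 (0.25), Slc2a1 (0.24), Adm (0.22) and Ddit4 (0.26) then fell short of it. Of all genes, 973 were then higher and 906 lower by the same rule, against 1110 and 1020 without trend removal. The members' median GC content was 51.9%, against 49.8% for all genes with 20 counts.

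**Figure D1:**
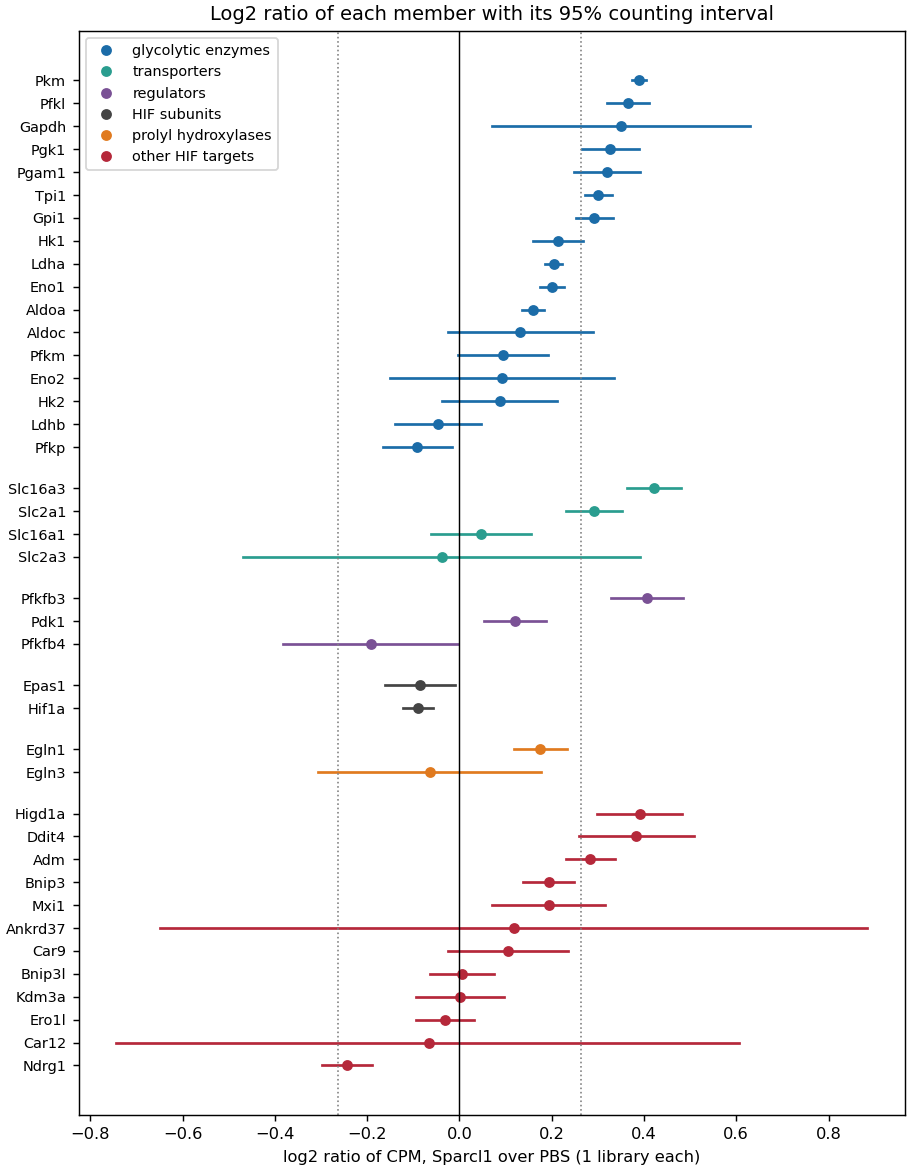
Log2 ratio of CPM, Sparcl1 over PBS, for the 40 members by role, from 1 library each; bars are 95% counting intervals and dotted lines mark 1.2-fold. Points of most glycolytic genes lie right of 0, up to 0.42 for Slc16a3, whereas both HIF subunits lie left of 0.

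Glycolytic enzymes were higher in the Sparcl1 library along most of the pathway. Of 17 enzymes, 15 had ratios above 1, against 49.6% of all genes, with a median log2 ratio of 0.20. By the 1.2-fold rule 7 were higher (41.2%) and none was lower, against 8.34% and 7.66% of all genes. Among all genes with at least 1000 summed counts the shares were 5.75% and 5.17%. Summed per exon length, the 17 enzyme transcripts stood at 8628 TPM (counts per exon length, at a common total) in the Sparcl1 library and 7231 TPM in the PBS library, a ratio of 1.19. TPM values are used below for comparing levels between genes, and CPM for comparing the libraries.

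Glucose is first phosphorylated by hexokinases. Hk1, the widely expressed form, had 203 CPM in the Sparcl1 library and 175 CPM in the PBS library (log2 0.21, interval 0.16 to 0.27). Hk2, the form known as the HIF-inducible one, had 38.5 and 36.3 CPM in the Sparcl1 and PBS libraries, a log2 ratio of 0.09 whose interval (-0.04 to 0.21) holds 0. Hk1 made up 63.6% of hexokinase transcripts per length in the Sparcl1 library and 63.4% in the PBS library. The inducible isoform was therefore neither the main hexokinase transcript nor clear of counting error. Gpi1, which converts glucose 6-phosphate to fructose 6-phosphate, had 400.1 CPM in the Sparcl1 library and 327 CPM in the PBS library (0.29, 0.25 to 0.33).

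The 3 phosphofructokinase genes, which encode subunits of the committing enzyme, did not move alike. Pfkl, the liver-type subunit, had 312 CPM in the Sparcl1 library and 242 CPM in the PBS library (log2 0.37, 0.32 to 0.41). Pfkm, the muscle type, was at 62.2 and 58.3 CPM in the Sparcl1 and PBS libraries (0.10, interval holding 0). Pfkp, the platelet type, was at 97.8 and 104 CPM (-0.09, -0.17 to -0.02), and near equality (0.02) when length and GC trends were removed. Pfkl accordingly held 64.3% of phosphofructokinase transcripts per length in the Sparcl1 library and 59.0% in the PBS library. The intervals of Pfkl and of the other two genes do not overlap.

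Aldolase and triose phosphate isomerase yield the triose phosphates of the lower pathway. Aldoa, the main aldolase, had 1002 CPM in the Sparcl1 library and 897 CPM in the PBS library (log2 0.16, 0.14 to 0.18), and it supplied 97.8% of aldolase transcripts in both. Aldoc, the brain-type form, was at 24.8 and 22.6 CPM in the Sparcl1 and PBS libraries, with an interval that holds 0. Tpi1 had 754 CPM in the Sparcl1 library and 612 CPM in the PBS library (0.30, 0.27 to 0.33), although its printed promoter held no core.

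In the lower pathway, the main form at each step below Gapdh had an interval above 0. Pgk1, the first ATP-generating enzyme, had 168 CPM in the Sparcl1 library and 134 CPM in the PBS library (log2 0.33, 0.27 to 0.39). Pgam1, which moves the phosphate group within phosphoglycerate, had 124 and 99.0 CPM in the Sparcl1 and PBS libraries (0.32, 0.25 to 0.39). Eno1, the main enolase, had 880.3 CPM in the Sparcl1 library and 766 CPM in the PBS library (0.20, 0.17 to 0.23), whereas the neuronal form Eno2 was at 10.3 and 9.66 CPM with an interval that holds 0. Pkm, the pyruvate kinase that closes the pathway, had the largest number of counts among the members, 73504 in the Sparcl1 library and 60856 in the PBS library (0.39, 0.37 to 0.41). By per-length level it ranked 42nd of all genes in the Sparcl1 library and 55th in the PBS library. The count table does not separate its M1 and M2 splice forms.

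Gapdh stands apart because an enzyme usually known for very high transcript levels was recorded with only 235 counts in the Sparcl1 library and 200 in the PBS library. Its per-length level, 8.29 TPM in the Sparcl1 library and 6.52 TPM in the PBS library, was far below that of Tpi1, the step before it (1085 and 882 TPM). Of its 50-base transcript windows, 82.5% also occurred in transcripts of other genes, 213 of them annotated pseudogenes. How reads with several genomic matches were counted is not given in the sources used here. Levels of members with shared sequence, and the summed TPM of the enzymes, may therefore be understated, which was not tested. Gapdh counted among the 13 higher members (log2 0.35), but with an interval from 0.07 to 0.63. On GRCm38 it lies at chr6:125161715-125166467, near Tpi1 (chr6:124810586-124814296) and Eno2 (chr6:124760053-124769673), whose log2 ratios were 0.30 and 0.09.

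Lactate dehydrogenase is a tetramer of Ldha and Ldhb products, the A type favouring lactate formation and the B type pyruvate. Ldha had 1650 CPM in the Sparcl1 library and 1433 CPM in the PBS library (log2 0.20, 0.18 to 0.22). Ldhb had 65.7 and 67.9 CPM in the Sparcl1 and PBS libraries (-0.05, interval holding 0). Per length, Ldha exceeded Ldhb 11.9-fold in the Sparcl1 library and 10.0-fold in the PBS library. The intervals of the 2 genes' ratios do not overlap.

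**Figure D2:**
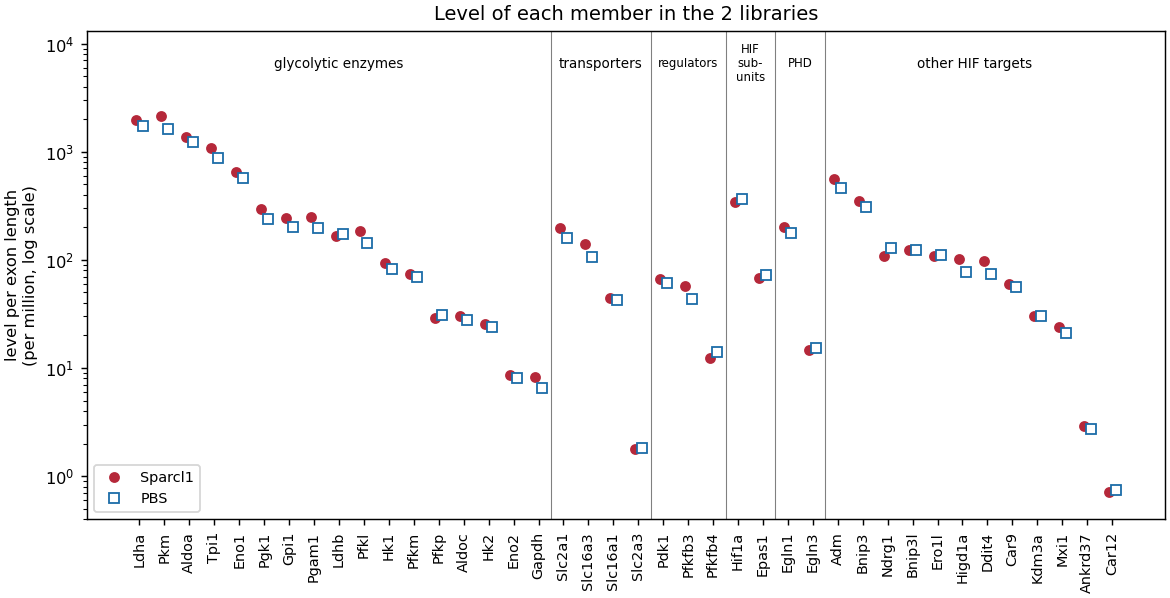
Level per exon length (TPM, log axis) of each member in the Sparcl1 library (filled) and the PBS library (open), by role and ordered by the PBS level; PHD marks the HIF prolyl hydroxylases. Ldha and Pkm are the most abundant members, and Gapdh lies at the bottom of the enzymes.

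Of the 4 transporters, 2 were higher by the 1.2-fold rule and none was lower, against 8.34% and 7.66% of all genes. Slc2a1, the basal glucose transporter GLUT1, had 173 CPM in the Sparcl1 library and 141 CPM in the PBS library (log2 0.29, 0.23 to 0.35). Slc16a3, the lactate exporter MCT4, had the highest ratio of all members, with 189 CPM in the Sparcl1 library and 141 CPM in the PBS library (0.42, 0.36 to 0.48). Slc16a1, which encodes MCT1 and carries lactate either way, was at 49.2 and 47.6 CPM in the Sparcl1 and PBS libraries (0.05, interval holding 0). Slc16a3 thus held 74.9% of the transcripts of Slc16a1, Slc16a3 and Slc16a7 per length in the Sparcl1 library and 69.2% in the PBS library. Slc2a3, the GLUT3 gene, was rare, with 88 counts in the Sparcl1 library and 98 in the PBS library, and no difference was detectable at this depth.

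The 3 regulators differed from each other. Pfkfb3, whose product makes the phosphofructokinase activator fructose 2,6-bisphosphate, had 110.3 CPM in the Sparcl1 library and 83.2 CPM in the PBS library (log2 0.41, 0.33 to 0.48). Pfkfb4, a paralog of the same activity, was at 15.3 and 17.4 CPM in the Sparcl1 and PBS libraries (-0.19, -0.38 to -0.00). Pdk1, a kinase that shuts off pyruvate dehydrogenase and a classic HIF target, was at 131 and 121 CPM (0.12, 0.05 to 0.19). Per length, Pdk3 was the most abundant of the 4 pyruvate dehydrogenase kinases, with 104 TPM in the Sparcl1 library and 123 TPM in the PBS library. In CPM, Pdk3 (66.9 and 79.5) was below Pdk1, so this order rests on the exon lengths used.

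Both HIF alpha subunits had ratios slightly below 1. Hif1a, the alpha subunit that drives most glycolytic targets, had 512 CPM in the Sparcl1 library and 545 CPM in the PBS library (log2 -0.09, -0.12 to -0.06). Once length and GC trends were removed, its log2 ratio was 0.00. Epas1, which encodes HIF-2 alpha, was at 95.9 and 102 CPM in the Sparcl1 and PBS libraries (-0.08, -0.16 to -0.01). HIF activity is set mainly at the level of protein stability, which transcript counts do not show. Egln1 (PHD2), the main oxygen sensor and a feedback target of HIF, was at 183 CPM in the Sparcl1 library and 162 CPM in the PBS library (0.18, 0.12 to 0.23). Egln3 (PHD3), a strongly hypoxia-inducible hydroxylase, was at 9.85 and 10.3 CPM in the Sparcl1 and PBS libraries (-0.06, interval holding 0).

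The other 12 HIF targets were mixed, with 9 ratios above 1, of which 3 passed the 1.2-fold rule. Higd1a, a mitochondrial protein that helps cells survive low oxygen, had 77.6 CPM in the Sparcl1 library and 59.2 CPM in the PBS library (log2 0.39, 0.30 to 0.48). Ddit4 (REDD1), a stress-induced brake on mTOR, had 42.8 and 32.8 CPM in the Sparcl1 and PBS libraries (0.38, 0.26 to 0.51). Adm, which encodes the vasodilator peptide adrenomedullin, had 228 CPM in the Sparcl1 library and 187 CPM in the PBS library (0.28, 0.23 to 0.34). All 3 are also known to respond to stresses other than hypoxia.

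Ndrg1, a hypoxia- and stress-induced gene linked to growth arrest, had the lowest ratio of all members, with 179.9 CPM in the Sparcl1 library and 213 CPM in the PBS library (log2 -0.24, -0.30 to -0.19). The mitophagy receptor genes differed, with Bnip3 at 201 and 176 CPM in the Sparcl1 and PBS libraries (0.19, 0.14 to 0.25) and its paralog Bnip3l at 121 and 120.2 CPM (0.01). Mxi1, a MYC antagonist, was at 0.19 (0.07 to 0.32). Car9, the carbonic anhydrase widely used as a hypoxia marker, was at 35.04 CPM in the Sparcl1 library and 32.6 CPM in the PBS library (0.11, interval holding 0).

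The remaining HIF targets were close to equal or too rare to judge. Kdm3a, a histone demethylase, was at 62.5 CPM in the Sparcl1 library and 62.4 CPM in the PBS library, and Ero1l, an oxidase for disulfide formation in the endoplasmic reticulum, was at 144 and 147 CPM. Their log2 ratios of 0.00 and -0.03 each changed sign under another scaling of the libraries. Car12 had 37 counts in the Sparcl1 library and 42 in the PBS library, and Ankrd37 had 31 in each, so that no difference was detectable for either.

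Glycolytic genes and non-glycolytic HIF targets were set side by side, since HIF is known to act on both. The 24 glycolytic members had a median log2 ratio of 0.20 (range -0.19 to 0.42), with 20 ratios above 1. By the 1.2-fold rule 10 of them were higher (41.7%), against 8.34% of all genes. The 14 non-glycolytic HIF targets, which include Egln1 and Egln3, had a median of 0.11 (range -0.24 to 0.39), with 10 ratios above 1 and 3 higher (21.4%). The medians differed by 0.09, and the ranges overlapped over most of their length. Of the HIF targets 3 lay above the glycolytic median, and 8 glycolytic members lay below the median of the HIF targets.

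That difference depended on which members were kept. With a minimum of 100 summed counts it was 0.06. In members with at least 1000 summed counts, a restriction chosen after the data were seen, it was 0.03 (medians 0.21 and 0.18). With length and GC trends removed it was 0.11. The difference also depended on a set of 8 enzymes for which processed pseudogenes are known (Gapdh, Aldoa, Eno1, Ldha, Pgk1, Pgam1, Pkm and Tpi1). Without them the glycolytic median was 0.11 and the difference -0.00. The set held glycolytic genes only, so the median of the HIF targets stayed at 0.11. Kept were other members with sequence shared with annotated pseudogenes, such as Gpi1 (3 pseudogenes), Bnip3 (4) and Higd1a (2). Without the 15 members that share over 10% of their transcript windows with other genes, a restriction chosen after the values were seen, the medians were 0.13 and 0.11. High ratios occurred without shared sequence, as for Slc16a3 and Ddit4 (0% of windows), Pfkl (0.0543%) and Pfkfb3 (0.631%), and with it, as for Higd1a (36.6%), Pkm (34.4%) and Gapdh (82.5%). Exons of 15 members overlap an annotated gene on the opposite strand, and reads of such pairs cannot be told apart without strand.

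**Figure D3:**
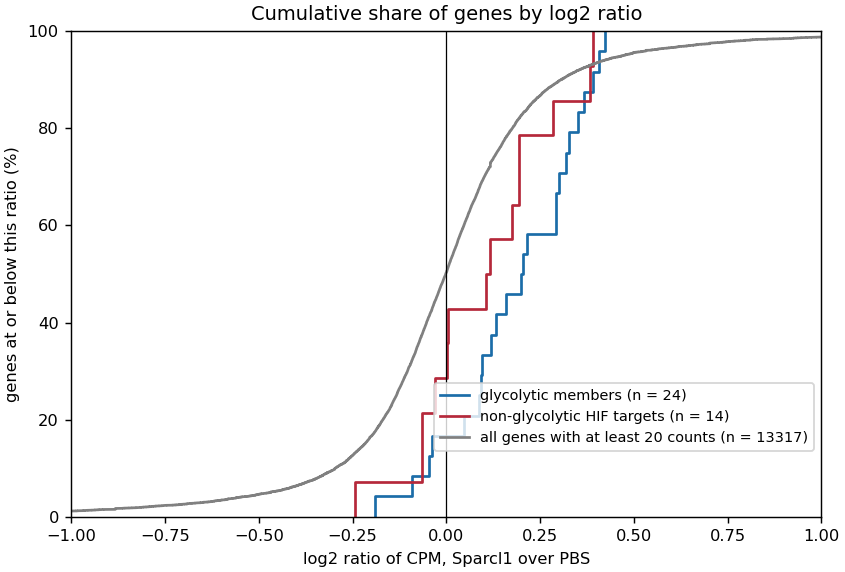
Share of genes (%) at or below each log2 ratio, Sparcl1 over PBS, for the 24 glycolytic members, the 14 non-glycolytic HIF targets and all 13317 genes with at least 20 counts. Both member curves lie right of the curve for all genes near their medians of 0.20 and 0.11.

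**Figure D4:**
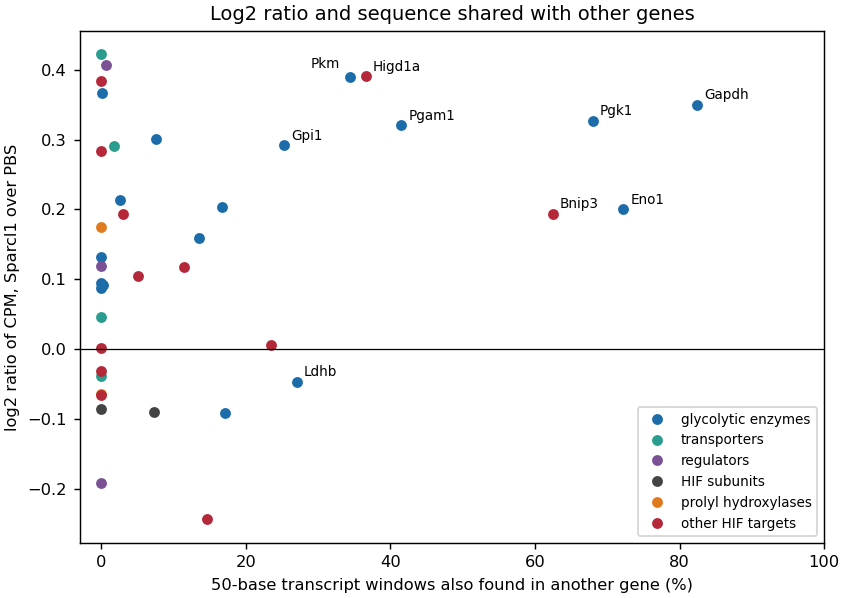
Log2 ratio, Sparcl1 over PBS, of each member against the percentage of its 50-base transcript windows that also occur in another gene. Gapdh has the largest shared percentage (82.5%), and high ratios occur both with and without shared windows.

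Neighbouring pathways were read from further lists. Over all genes, 8.34% were higher and 7.66% lower by the 1.2-fold rule, the background for every list below. In the pentose phosphate pathway, which branches from glucose 6-phosphate and makes NADPH, 6 of 8 genes had ratios above 1, 2 were higher and none was lower, with a median log2 ratio of 0.17. Pgd was at 0.37 (230.2 CPM in the Sparcl1 library and 179 CPM in the PBS library) and Pgls at 0.28, while Rpia and Rpe, of the non-oxidative branch, were at -0.06 and -0.03. Pyruvate dehydrogenase and tricarboxylic acid cycle genes were near equal, with a median of 0.02 over 25 genes, 1 higher and 1 lower. The higher gene was Pdhx (0.32), a structural subunit of pyruvate dehydrogenase, and the lower was Pdp1 (-0.33), the phosphatase that opposes the kinases. Sdha was at 0.15 and Idh3a at -0.12.

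Other isoforms of the glycolytic steps had a median log2 ratio of 0.00 over 14 of 20 genes with enough counts, with 2 higher and 2 lower. Slc2a6, a glucose transporter family gene, was at 0.42 and Hk3, a hexokinase of myeloid cells, at 0.30. Slc16a7 was at -0.33 and Gapdhs, the sperm-type enzyme, at -0.71 (74 counts in the Sparcl1 library and 131 in the PBS library). Glycogen and gluconeogenesis genes had a median of 0.05 over 12 genes, with none higher and 2 lower. The lower genes were Ugp2, which makes UDP-glucose (-0.33), and Pck2, the mitochondrial carboxykinase (-0.32), while Gys1 and Pygl were at 0.23 and 0.15.

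No HIF machinery gene beyond the members passed the 1.2-fold rule, which 8.34% of all genes passed as higher and 7.66% as lower. This list of 12 genes is too short to tell its count from those shares. The median was -0.02 over 12 genes, from Arnt2 (-0.17) and Vhl (-0.17) to Elob (0.15) and Egln2 (0.23). A further 27 HIF targets had a median of 0.05, with 4 higher (14.8%) and 2 lower by the 1.2-fold rule. Angptl4, an inhibitor of lipoprotein lipase that also responds to PPAR receptors, passed 2-fold, with 35.7 CPM in the Sparcl1 library and 15.8 CPM in the PBS library (log2 1.18, 1.02 to 1.34). Jmjd6 was at 0.46, whereas Stc2 and Pdgfb were at -0.54 and -0.31. Vegfa, the angiogenic HIF target, was at 0.21.

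**Figure D5:**
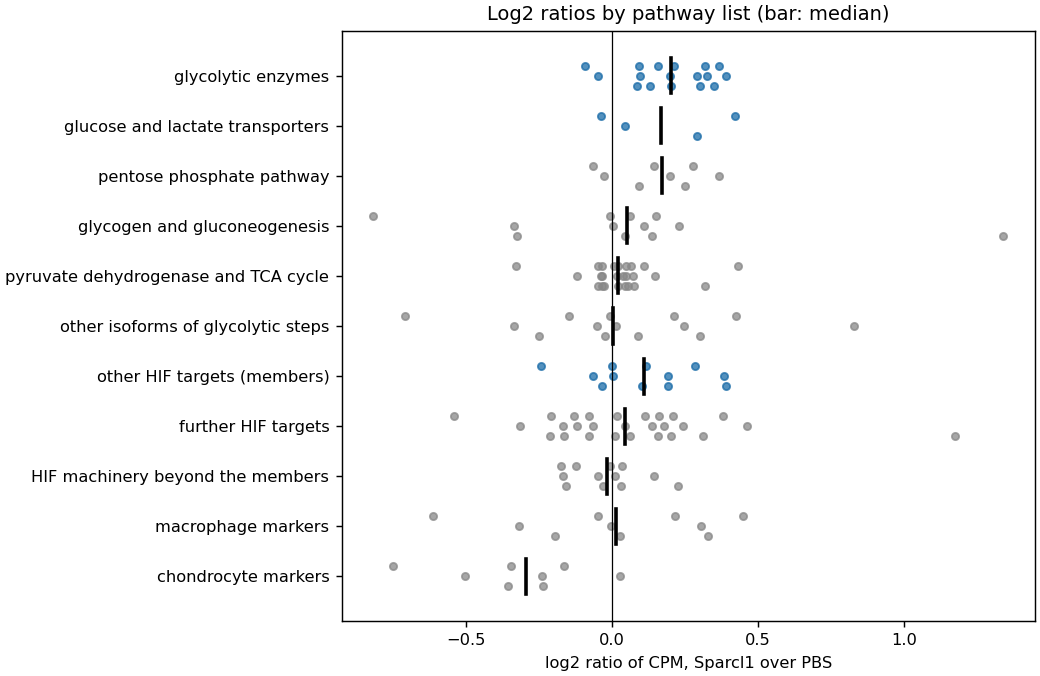
Log2 ratio, Sparcl1 over PBS, of each gene with at least 20 counts in 11 lists; blue points are members, grey points are other genes and bars are medians. Medians lie at 0.20 for glycolytic enzymes, 0.17 for the pentose phosphate pathway and 0.02 for pyruvate dehydrogenase and the tricarboxylic acid cycle.

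Markers of cell types were read by the same 1.2-fold rule, which 8.34% of all genes passed as higher and 7.66% as lower. Of the 10 macrophage markers 3 were higher (Itgam 0.45, Mrc1 0.33, Lyz2 0.31) and 1 was lower (Fcgr1 -0.61), with a median log2 ratio of 0.01 and Ptprc at -0.19. Nos2, which is not in any of these lists, had 61 counts in the Sparcl1 library and 9 in the PBS library (log2 2.88, 1.86 to 4.07). Of the 8 chondrocyte markers 4 were lower and none was higher, with a median of -0.29. Matn3 was lowest at -0.75, with 39 counts in the Sparcl1 library and 71 in the PBS library. The others ran from Acan (-0.50) and Hapln1 (-0.35) to Col11a2 (-0.16) and Comp (0.03). Of the 6 osteoblast markers all had ratios below 1 and 4 were lower, with a median of -0.46. Ibsp was at -0.62, Alpl at -0.54, Col1a1 at -0.38 and Sp7 at -0.30. Of the 5 endothelial markers 2 had at least 20 counts, and Vwf was lower (-0.67), while neither of the 2 skeletal muscle markers with enough counts passed the rule. The part of these cell types in the ratios of the glycolytic genes was not tested.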

How the data were processed

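Gene expression was measured by RNA sequencing of total RNA in 2 libraries of cultured wild-type mouse chondrocytes. The authors deposited raw read counts by gene symbol in a table with a column for each library, whose names identify them. Per the submitters' processing notes, the tools were HTSeq, STAR, Trimmomatic and FastQC and the build was mm10; versions, annotation, strand setting and the handling of reads with several genomic matches are not given in the sources used here. Counts were scaled by trimmed mean of M-values (TMM) factors of 1.01 (Sparcl1) and 0.988 (PBS) from edgeR 4.0.16 in R 4.3.3. The rest used Python 3.11.15 with pandas 2.3.3, statsmodels 0.14.6, scipy 1.17.1, matplotlib 3.10.9 and numpy 2.4.6.

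Per-length levels (TPM) used summed exon lengths from GENCODE M21 on GRCm38, the assembly that mm10 names, and 21900 of 21983 symbols matched. These lengths join all annotated exons of a gene and can exceed its transcripts. For Pdk1 the length was 7779 bases against 5185 in its longest protein-coding transcript, for Pfkp 13401 against 4145 and for Gapdh 4133 against 1420. Levels, ranks and isoform shares per length depend on this choice. Intervals are exact 95% Clopper-Pearson intervals on the Sparcl1 library's part of a gene's counts. They cover counting error only and treat reads as independent, although PCR copies without molecular identifiers are not independent molecules. With 1 library per group no test across libraries was possible. Genes needed 20 summed counts, and a count of 0 stood as 3. Shared sequence was the percentage of 50-base windows of a member's longest protein-coding transcript found, on either strand, in transcripts of another gene. Promoters came from a RefSeq table on GRCm38.p6. The ratio and interval steps were tested on simulated data.

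The members, lists and size rules were chosen with earlier results of these data known. All 40 members are given; from each other list the text names the 2 highest and 2 lowest ratios among genes with at least 200 summed counts, and any gene past 2-fold. Vegfa, Lyz2, Nos2, Pdk3, Bglap and Matn3 were named after their values were seen. Alternatives were 3 other scalings (upper-quartile factors, size factors from DESeq2 1.42.0, total counts), no count minimum or one of 100, a prior count of 2, removal of smooth trends with length and GC content, means, and several restrictions of the members.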

Additional observations from a re-analysis of the deposited data

How the results depend on the processing

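The counts of members past the 2-fold rule (0 higher, 0 lower) and of members lower by the 1.2-fold rule (0) were the same under the 3 other scalings, both other count minimums and trend removal. The count of members higher by the 1.2-fold rule was 13 under the scalings and count minimums, and 8 with length and GC trends removed. Over all genes the higher count was 973 with those trends removed, against 1110 in the main setting. The median of the members ranged from 0.10 without the 8 enzymes with known pseudogenes to 0.19 in members with at least 1000 summed counts, a restriction chosen after the data were seen. The glycolytic median was 0.11 without those 8 enzymes and 0.13 without members that share over 10% of windows. Over all genes, the 2-fold rule gave 201 higher genes with no count minimum, and 20 higher and 38 lower with a minimum of 100. The cause was not tested, except that a count minimum changes the genes counted. With total counts as library sizes every member's log2 ratio was 0.03 higher, and the median of all genes was 0.03. No member past the 1.2-fold rule changed direction under the other scalings, trend removal or a prior count of 2. No paired analysis was possible because each group had 1 library. Leaving out a library was not possible for the same reason. Depth limits Car12, Ankrd37, Slc2a3 and Gapdh most.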
